A study of Mus musculus with 12 samples.

Results

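The nuclear genes of respiratory chain complexes I and III were followed in mouse embryonic fibroblasts with and without Atm, irradiated or not. Members were taken as every probe whose RefSeq accession belongs to a gene with an official symbol beginning with Nduf or Uqcr, and the brightest probe stood for each gene. That gave 51 genes on 67 probes, out of 17305 named genes on an array of 41174 probes. By role they were 7 nuclear core subunits of complex I, 10 accessory subunits of its matrix arm, 18 accessory subunits of its membrane arm, 7 assembly factors named Ndufaf, Ndufa4, and 8 subunits of complex III. Ndufa11, Ndufb1, Ndufb4b, Ndufb4c, Ndufaf8 and Ndufa4l2 matched no probe and were not analysed here. Uqcrh, Ndufab1, Ndufs6, Ndufa12 and Ndufs5 have near-identical copies elsewhere in the mouse genome, so a probe for one of them may also read its copy.

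Complex I (NADH:ubiquinone oxidoreductase) takes electrons from NADH and passes them to ubiquinone. Complex III (the cytochrome bc1 complex) passes them on to cytochrome c, and both pump protons across the inner mitochondrial membrane. Some subunits of both are encoded in mitochondrial DNA, but every member here is encoded in the nucleus, and the Ndufaf proteins help to build complex I without being part of the finished enzyme. Atm, the kinase lost in ataxia telangiectasia, signals DNA double-strand breaks, and part of it has been reported at mitochondria.

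The 12 single-colour arrays fell into 4 groups of 3, all total RNA of embryonic fibroblasts: nonirradiated Atm wild type (NonIR-WT), irradiated Atm wild type (IR-WT), nonirradiated Atm knockout (NonIR-KO) and irradiated Atm knockout (IR-KO). Irradiated cells received 4.32 Gy, and all groups were sampled at 72 h. The labels give no allele, strain, sex, passage or number of embryos for either genotype, so the genotypes could differ in more than Atm. Nothing in the labels says that the samples of a group were separate cultures, so the p-values may reflect technical spread alone. All values are log2 processed signal minus the 75th percentile of the same array, called the log2 level, and their precision is limited by 3 arrays per group.

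The arrays were near each other in the share of probes detected but not in brightness. Between 55.3 and 64.5% of probes were well above background per array, no spot was saturated, and the 75th percentile signal lay between 379 and 757. The 12 fibroblast markers were well above background on all arrays, with a summed linear level of 1470 to 2710 times the 75th percentile. Summed macrophage and blood cell markers, of which 9 of 12 listed genes passed the filter on dim probes, were 2.91 to 7.28 on the Atm-WT arrays and 0.53 to 0.99 on the Atm-KO arrays. Summed muscle markers were 11.2 to 63.1, and adipocyte, neural, epithelial and endothelial markers were each at most 12.3. Both Atm probes were dim in every group, and the brighter one was well above background on 5 of 6 Atm-WT arrays and 1 of 6 Atm-KO arrays. These are whole cultures, so fewer cells of a type and less RNA per cell cannot be told apart.

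Sequences around the starts of the members are shown first, as background on the control elements known for this gene family. Whether these elements bear on the responses below was not tested. NRF1, the ETS protein GABP (also called NRF2) and YY1 are the classical regulators of nuclear genes for mitochondrial proteins. RefSeq promoter windows on GRCm38.p6, each 300 bases from 250 before to 50 after the start, matched 43 of the 51 members. The 4 windows below belong to the genes with the lowest differences after irradiation of Atm-KO cells (Uqcrh, Ndufs6, Ndufa6) and to the complex III core gene whose probe was not lower after irradiation of Atm-WT cells (Uqcrc1). Capitals mark a match to CCGGAAG (ETS, here on the opposite strand as CTTCCGG), AAGATGGC (YY1) or GCATGCGC (NRF1), with both strands searched.
Uqcrh, chr4:116075021-116075320, minus strand: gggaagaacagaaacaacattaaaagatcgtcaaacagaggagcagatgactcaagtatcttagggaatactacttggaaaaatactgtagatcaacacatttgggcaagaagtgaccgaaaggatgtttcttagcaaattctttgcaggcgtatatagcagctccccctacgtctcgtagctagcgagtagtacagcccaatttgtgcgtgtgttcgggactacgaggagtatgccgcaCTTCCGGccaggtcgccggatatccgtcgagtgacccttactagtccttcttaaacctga
Ndufs6, chr13:73328433-73328732, minus strand: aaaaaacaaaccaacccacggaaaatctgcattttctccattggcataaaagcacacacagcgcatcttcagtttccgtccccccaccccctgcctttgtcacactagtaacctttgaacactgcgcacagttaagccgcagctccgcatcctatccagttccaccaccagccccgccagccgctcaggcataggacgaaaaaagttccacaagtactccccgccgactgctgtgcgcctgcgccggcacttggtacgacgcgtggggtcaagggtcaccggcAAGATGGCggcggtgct
Ndufa6, chr15:82354242-82354541, minus strand: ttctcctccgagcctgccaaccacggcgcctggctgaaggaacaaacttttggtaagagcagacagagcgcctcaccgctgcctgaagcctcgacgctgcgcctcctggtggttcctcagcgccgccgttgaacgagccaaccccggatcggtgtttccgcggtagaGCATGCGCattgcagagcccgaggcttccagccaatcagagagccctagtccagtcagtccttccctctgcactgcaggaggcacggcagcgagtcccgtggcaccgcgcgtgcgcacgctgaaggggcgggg
Uqcrc1, chr9:108936398-108936697, plus strand: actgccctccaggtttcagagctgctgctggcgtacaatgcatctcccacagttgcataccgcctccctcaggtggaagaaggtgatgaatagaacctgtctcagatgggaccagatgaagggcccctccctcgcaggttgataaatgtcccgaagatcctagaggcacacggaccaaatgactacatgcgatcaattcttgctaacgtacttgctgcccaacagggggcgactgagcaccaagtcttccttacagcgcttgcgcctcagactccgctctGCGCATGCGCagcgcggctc

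Over the 45 windows of members, the NRF1 letters were present in 6 (13.3%, against 2.71% of all 32851 windows). The YY1 letters were present in 7 (15.6%, against 2.75%), and the ETS letters in 7 (15.6%, against 8.86%). At least 1 of the 3 was found in 19 windows (42.2%, against 13.3%). In Uqcrc1 the capitals span overlapping NRF1 matches on the 2 strands, as they also do in Ndufaf4 and Ndufaf5. The YY1 matches of members, in Ndufa3, Ndufa9, Ndufb8, Ndufc1, Ndufs4, Ndufs6 and Ndufs7, all read on the plus strand of the gene and lay 22 to 38 bases after the start. Among all windows, 284 of 927 YY1 matches (30.6%) were on the plus strand after the start. The YY1 letters contain ATG, the letters of a start codon. Whether these matches lie at the start of translation was not tested. A match is a description of these letters only, and no binding was measured.

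Irradiation of Atm-WT cells came with slightly lower log2 levels of nearly the whole family, except under normexp background correction, but no single member passed the test. The fitted difference, irradiated minus nonirradiated, was below 0 for 50 of 51 members, against 53.2% of all 18430 features tested. Among features other than members at a log2 level of 4 to 6 and over 6, where most members lie, 63.3% and 79% were below 0. Its median was -0.35 (a fold of 1.27 lower), against -0.02 over all features, and it ran from -0.63 for Uqcrh to 0.10 for Uqcrc1. With limma and Benjamini-Hochberg adjustment over all features, 0 members were called at an adjusted p under 0.05 (background 0.445%), and the smallest adjusted p was 0.506, for Ndufb5. Without adjustment 5 members had a p under 0.05, all lower (background 2.71%), namely Ndufb5, Ndufa5, Ndufb3, Ndufa1 and Ndufv2. This count was 12 without NonIR-WT array 1, 1 without NonIR-WT array 2 or 3 or IR-WT array 1, 0 without IR-WT array 3, 2 without NonIR-KO or IR-KO array 3, 3 without NonIR-KO or IR-KO array 2, and 0 with normexp. Without all 4 arrays numbered 1, an alternative chosen after seeing the data, the count was 18. The IR-WT arrays lay wholly below the NonIR-WT arrays for 10 members (background 5.7%), and 44 members were lower in each of the 3 same-numbered pairs (background 25.7%).

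In Atm-KO cells the direction was the same for 50 of 51 members, against 54.7% of all features. For other features at a log2 level of 4 to 6 and over 6 the shares below 0 were 73.1% and 85.7%. The median difference was -0.54 (a fold of 1.45 lower), against -0.05 over all features, with a range of -0.95 for Uqcrh to 0.18 for Ndufs1. Again 0 members were called by limma (background 0.00543%), and the smallest adjusted p was 0.342, for Ndufb5. An unadjusted p under 0.05 was found for 16 members, all lower (background 5.05%), which became 2 without NonIR-KO array 1 and 7 without IR-KO array 1 or 3. The IR-KO arrays lay wholly below the NonIR-KO arrays for 30 members (background 10.4%), and 37 members were lower in each of the 3 pairs (background 23.4%). Same-numbered samples within a genotype deviated together, and with the pair as a block the smallest adjusted p was 0.134 in Atm-WT cells and 0.0798 in Atm-KO cells, again for Ndufb5, with 0 members called (background 2.26% and 2.05%). With that block 0 members were called in the comparisons that follow too (background 0.0217% for the difference of effects, 1.71% and 0.76% for the genotype comparisons).

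**Figure D1:**
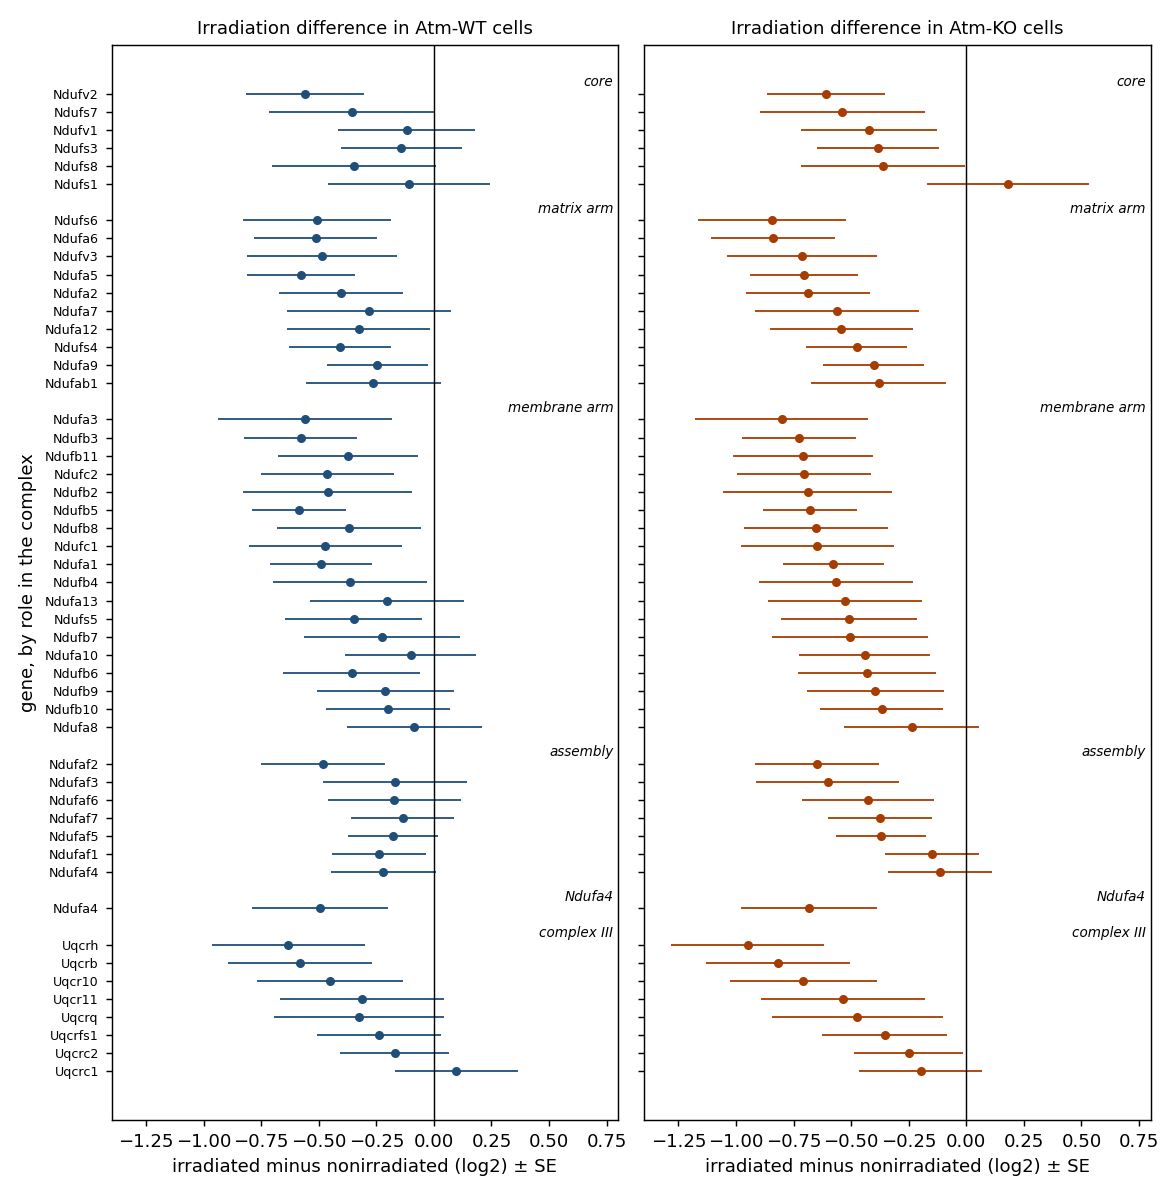
Fitted irradiation difference (log2, irradiated minus nonirradiated) of 50 of the 51 genes, grouped by role and ordered by the Atm-KO difference within a role, with ± SE bars from the limma fit (3 arrays per group); left Atm-WT cells, right Atm-KO cells. Points lie left of 0 for every gene drawn except Uqcrc1 on the left and Ndufs1 on the right.

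The Atm-KO values leaned on 1 pair of arrays. The median over members of the within-pair difference was -0.27, -0.20 and -0.51 in Atm-WT pairs 1, 2 and 3, and -1.2, -0.21 and -0.29 in Atm-KO pairs 1, 2 and 3. Within those pairs 50, 45 and 50 members were lower in Atm-WT cells, and 48, 39 and 50 in Atm-KO cells, so every pair leaned the same way. Over all features the pair medians were -0.09, -0.01 and 0.03 in Atm-WT cells and -0.27, 0.03 and 0.01 in Atm-KO cells. With both Atm-KO arrays numbered 1 left out, an alternative chosen after seeing the data, the median Atm-KO difference was -0.20, with 47 of 51 members below 0. The number of members with an unadjusted p under 0.05 was then 1 in place of 16. Without all 4 arrays numbered 1 the median was also -0.20, but this number was 11, with 0 members called. The share over all features at that threshold is not given here for these leave-outs.

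Seen array by array, each gene centred on its own mean over the 12 arrays, the median member stood at -0.25, 0.30 and 0.41 on NonIR-WT arrays 1, 2 and 3. It stood at -0.51, 0.12 and -0.11 on the IR-WT arrays. On the NonIR-KO arrays it was 0.61, 0.14 and 0.12, and on the IR-KO arrays -0.58, -0.02 and -0.22. NonIR-WT array 1 therefore sat below IR-WT arrays 2 and 3, and the Atm-WT groups overlapped, whereas all NonIR-KO arrays sat above all IR-KO arrays. The group means were 0.15 ± 0.36, -0.17 ± 0.31, 0.29 ± 0.28 and -0.27 ± 0.28 (SD, n = 3 each, in the order NonIR-WT, IR-WT, NonIR-KO, IR-KO). The 3 arrays with the lowest member medians, IR-KO 1, IR-WT 1 and NonIR-WT 1, were also the 3 with the highest 75th percentile signal (708, 757 and 608, against 379 to 513 on the others). The part of array brightness in the result was not tested. Macrophage and blood cell markers differed with irradiation too, with a median difference of -0.64 in Atm-WT cells (8 of 9 below 0, summed level 3.91 to 7.28 without and 2.91 to 4.57 with irradiation) and 0.41 in Atm-KO cells (3 of 9 below 0, summed level 0.53 to 0.99 and 0.66 to 0.86). None of these was called, 2 were in Atm-KO cells with the pair as a block, and their part in the members' values was not tested.

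**Figure D2:**
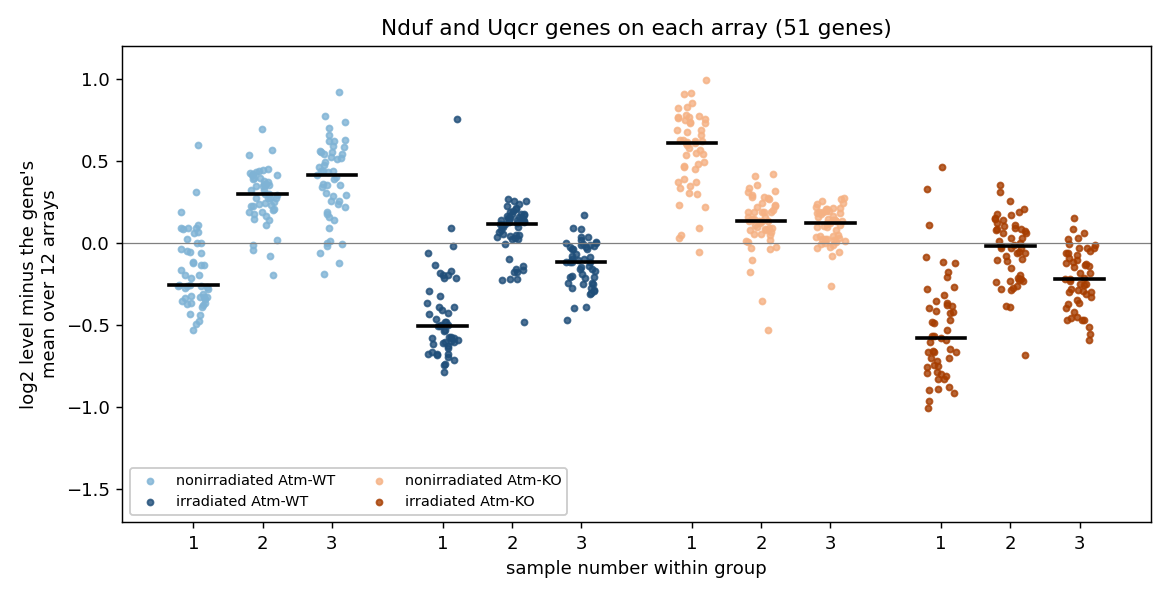
Log2 level of each of the 51 genes minus that gene's mean over the 12 arrays, by array, with sample numbers 1 to 3 within each group on the horizontal axis and the member median as a black bar. The medians are highest on NonIR-KO array 1 (0.61) and lowest on IR-KO array 1 (-0.58), and NonIR-WT array 1 (-0.25) lies below the other nonirradiated arrays.

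The size of the family's shift depended on scaling, since bright features in general were lower after irradiation. Among features other than members with a mean log2 level over 6, the median irradiation difference was -0.22 in Atm-WT cells and -0.35 in Atm-KO cells, while for those below 0 it was 0.02 and 0.03. Most members are bright. The 28 members at a log2 level of 4 to 6 had medians of -0.37 and -0.55, against -0.07 and -0.20 for the other features in that band, and the 10 members over 6 had medians of -0.34 and -0.54. After quantile normalization, which brought the other features of every band to between -0.04 and 0, the member medians were -0.21 in Atm-WT cells and -0.34 in Atm-KO cells, with 48 of 51 members below 0 in each.

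With normexp background correction the Atm-WT result was largely lost. The member median was -0.08 with 31 of 51 below 0, which is above the all-feature median of -0.16 under that correction, so relative to other features the direction turned. The correction had moved members by -0.94 on NonIR-WT array 3 and by -0.10 to -0.28 on the 11 others. Without that array, an alternative chosen after seeing the data, the normexp median in Atm-WT cells was -0.21 against -0.02 over all features, with 46 of 51 members below 0. In Atm-KO cells the normexp median was -0.53 against 0.02.

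**Figure D3:**
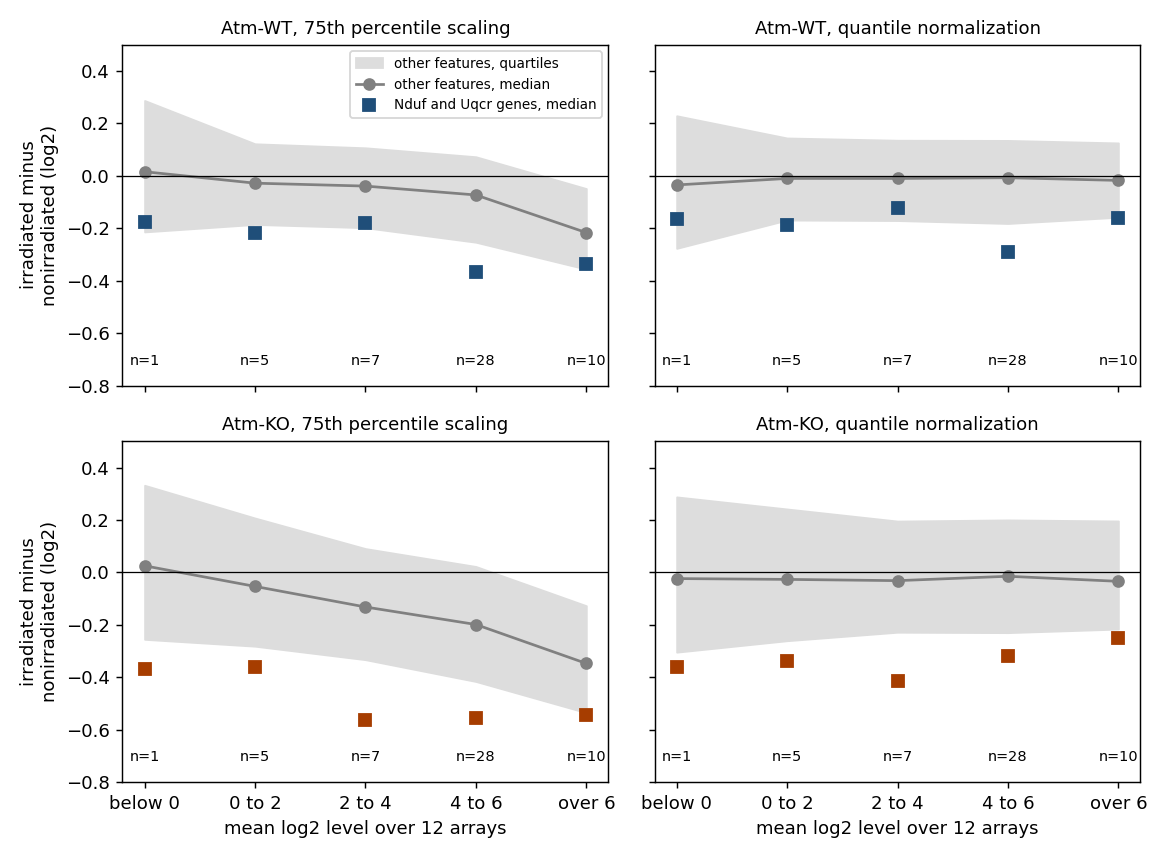
Irradiation difference (log2) by band of mean log2 level over the 12 arrays: grey line and shading, median and quartiles of all other tested features; squares, median of the Nduf and Uqcr genes, with their number n in each band. With 75th percentile scaling (left) the grey line slopes down to -0.22 (Atm-WT) and -0.35 (Atm-KO) in the brightest band, with quantile normalization (right) it is near 0, and the squares lie below it in all panels.

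Among the nuclear core subunits, which carry the flavin and the iron-sulfur clusters of complex I, the median difference was -0.18 in Atm-WT cells and -0.42 in Atm-KO cells. Ndufv2, an iron-sulfur subunit of the NADH-binding module, read 3.25, 3.44 and 3.58 on the NonIR-WT arrays and 2.93, 2.92 and 2.75 on the IR-WT arrays. It read 3.92, 3.23 and 3.18 on the NonIR-KO arrays and 3.02, 2.93 and 2.55 on the IR-KO arrays. In both genotypes all irradiated arrays lay below all nonirradiated ones. The limma difference was -0.56 ± 0.26 (SE, adjusted p = 0.773) in Atm-WT cells and -0.61 ± 0.26 (SE, adjusted p = 0.577) in Atm-KO cells.

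Ndufs1, the largest iron-sulfur subunit of complex I, was the core gene that did not share the Atm-KO direction. Its log2 levels were 3.31, 2.52 and 2.73 on the NonIR-WT arrays, 3.47, 2.23 and 2.53 on the IR-WT arrays, 2.81, 2.36 and 2.46 on the NonIR-KO arrays, and 3.18, 2.48 and 2.50 on the IR-KO arrays. The array numbered 1 was the highest of every group, and all 4 groups overlapped. The limma differences were -0.11 ± 0.35 in Atm-WT cells and 0.18 ± 0.35 in Atm-KO cells (SE), with adjusted p of 1 and 0.936.

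Ndufs8, which carries iron-sulfur clusters on the path to ubiquinone, shows how a single pair set a value. Its levels were 1.16, 1.63 and 1.86 on NonIR-WT and 0.96, 1.45 and 1.19 on IR-WT arrays, then 2.26, 0.82 and 1.45 on NonIR-KO and 0.76, 1.44 and 1.25 on IR-KO arrays. The Atm-KO pair differences were -1.50, 0.62 and -0.20, so the pairs did not share a direction. The fitted Atm-KO difference of -0.36 ± 0.36 (SE, limma adjusted p = 0.878) became 0.21 without both arrays numbered 1, and 0.01 without the nonirradiated one alone.

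Further core genes had smaller differences in Atm-WT than in Atm-KO cells, none called. Ndufs7, which carries the last iron-sulfur cluster before ubiquinone, had -0.36 ± 0.36 and -0.54 ± 0.36 (SE). Ndufs3 had -0.14 ± 0.26 and -0.38 ± 0.26, and Ndufv1, the FMN and NADH-binding subunit, -0.12 ± 0.30 and -0.42 ± 0.30. With normexp correction the Atm-WT differences of Ndufs7 and Ndufs3 were 0.85 and 0.14, so their direction there rests on the background correction.

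The matrix arm accessory subunits had the lowest median of the complex I groups, -0.41 in Atm-WT cells and -0.62 in Atm-KO cells, with all 10 below 0 in both. Ndufs6, an accessory subunit of the NADH-oxidising module needed in its assembly, read 4.87, 5.49 and 5.69 on NonIR-WT and 4.40, 5.24 and 4.89 on IR-WT arrays. On Atm-KO arrays it read 5.96, 5.45 and 5.38 without irradiation and 4.31, 5.03 and 4.92 with it. The Atm-WT groups overlapped and the Atm-KO groups did not, but 1 pair gave most of the Atm-KO difference of -0.84 ± 0.32 (SE, limma adjusted p = 0.512), with pair values of -1.65, -0.41 and -0.46.

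Ndufa6, an LYR-motif protein that holds the acyl carrier protein Ndufab1 on the matrix arm, had levels of 4.11, 4.53 and 4.69 on NonIR-WT and 3.63, 4.25 and 3.90 on IR-WT arrays. On NonIR-KO arrays it read 4.74, 4.29 and 4.32, above all of the IR-KO values of 3.35, 3.88 and 3.60. Its limma differences were -0.51 ± 0.27 (adjusted p = 0.899) and -0.84 ± 0.27 (adjusted p = 0.376), both ± SE. Ndufa5, another matrix arm subunit, was wholly lower on irradiated arrays in both genotypes, with differences of -0.58 ± 0.23 and -0.71 ± 0.23 (SE), and its Atm-KO irradiated arrays spread by an SD of only 0.03 around 5.48.

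The membrane arm accessory subunits, which surround the proton-pumping part of complex I, had medians of -0.37 and -0.57, with all 18 below 0 in both genotypes. Ndufb5 had the smallest adjusted p of the family in both. It read 2.80, 2.92 and 2.69 on NonIR-WT and 2.30, 2.32 and 2.03 on IR-WT arrays. It read 2.89, 2.81 and 2.76 on NonIR-KO and 2.08, 2.11 and 2.24 on IR-KO arrays. The groups were well apart in both genotypes, and no pair stood out, with pair differences of -0.50, -0.60 and -0.66 in Atm-WT cells and -0.81, -0.71 and -0.52 in Atm-KO cells. The limma differences were -0.59 ± 0.20 (95% interval -1.03 to -0.14, adjusted p = 0.506) and -0.68 ± 0.20 (95% interval -1.12 to -0.23, adjusted p = 0.342), so even this gene missed the threshold over all features.

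Ndufb3, another membrane arm subunit, also had wholly lower irradiated arrays in both genotypes. Its levels were 4.93, 5.38 and 5.32 on NonIR-WT against 4.45, 4.88 and 4.55 on IR-WT arrays, and 5.46, 4.85 and 5.06 on NonIR-KO against 4.27, 4.56 and 4.37 on IR-KO arrays. At the other end, Ndufa8 and Ndufa10 had Atm-WT differences of -0.09 ± 0.29 and -0.10 ± 0.28, and Atm-KO differences of -0.24 ± 0.29 and -0.44 ± 0.28 (SE), and their groups overlapped in both genotypes.

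The Ndufaf assembly factors had medians of -0.18 and -0.37, with all 7 below 0 in both genotypes. Ndufaf1, which acts on the membrane arm intermediate, had -0.24 ± 0.20 in Atm-WT cells and -0.15 ± 0.20 in Atm-KO cells (SE). Ndufaf4 had -0.22 ± 0.23 and -0.11 ± 0.23 (SE), while its 2 dimmer probes gave -0.13 and 0.89 in Atm-WT cells and 0.03 and -0.09 in Atm-KO cells, the one with 0.89 being well above background on 2 arrays. Ndufaf5, which hydroxylates an arginine of Ndufs7, was wholly lower on irradiated arrays in both genotypes, with differences of -0.18 ± 0.20 and -0.37 ± 0.20 (SE). Ndufa4, first described in complex I and now assigned to cytochrome c oxidase, read 6.26, 6.78 and 7.03 on NonIR-WT and 5.80, 6.45 and 6.34 on IR-WT arrays. It read 7.11, 6.50 and 6.36 on NonIR-KO and 5.85, 6.15 and 5.92 on IR-KO arrays, where the groups did not overlap, and its differences were -0.50 ± 0.29 and -0.68 ± 0.29 (SE).

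Complex III held both ends of the Atm-WT range. Uqcrh, the hinge protein that helps cytochrome c1 dock cytochrome c, read 7.86, 8.61 and 8.55 on NonIR-WT and 7.24, 8.08 and 7.80 on IR-WT arrays. It read 8.77, 8.07 and 8.02 on NonIR-KO and 6.92, 7.65 and 7.45 on IR-KO arrays. The Atm-WT groups overlapped, the Atm-KO groups did not, and every pair was lower, by -0.62, -0.53 and -0.75 in Atm-WT cells and -1.85, -0.42 and -0.57 in Atm-KO cells. The limma differences were -0.63 ± 0.33 (95% interval -1.36 to 0.09, adjusted p = 0.908) and -0.95 ± 0.33 (95% interval -1.67 to -0.23, adjusted p = 0.45).

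Uqcrb, a small subunit near the ubiquinone site, had lower irradiated arrays in both genotypes, with 4.17, 4.61 and 5.01 against 4.04, 4.02 and 3.99 in Atm-WT cells and 5.23, 4.34 and 4.16 against 4.03, 3.56 and 3.68 in Atm-KO cells. Its differences were -0.58 ± 0.31 and -0.82 ± 0.31 (SE). The core and Rieske proteins had values nearer 0. Uqcrc1 read 4.99, 5.31 and 5.34 on NonIR-WT and 4.88, 5.61 and 5.44 on IR-WT arrays, then 5.58, 5.54 and 5.51 on NonIR-KO and 4.93, 5.61 and 5.51 on IR-KO arrays. Its pair differences were -0.12, 0.30 and 0.11 in Atm-WT cells and -0.65, 0.07 and -0.01 in Atm-KO cells. Its differences were 0.10 ± 0.27 and -0.20 ± 0.27, those of Uqcrc2 -0.17 ± 0.24 and -0.25 ± 0.24, and those of Uqcrfs1, the Rieske iron-sulfur protein, -0.24 ± 0.27 and -0.35 ± 0.27 (SE), all with overlapping groups.

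**Figure D4:**
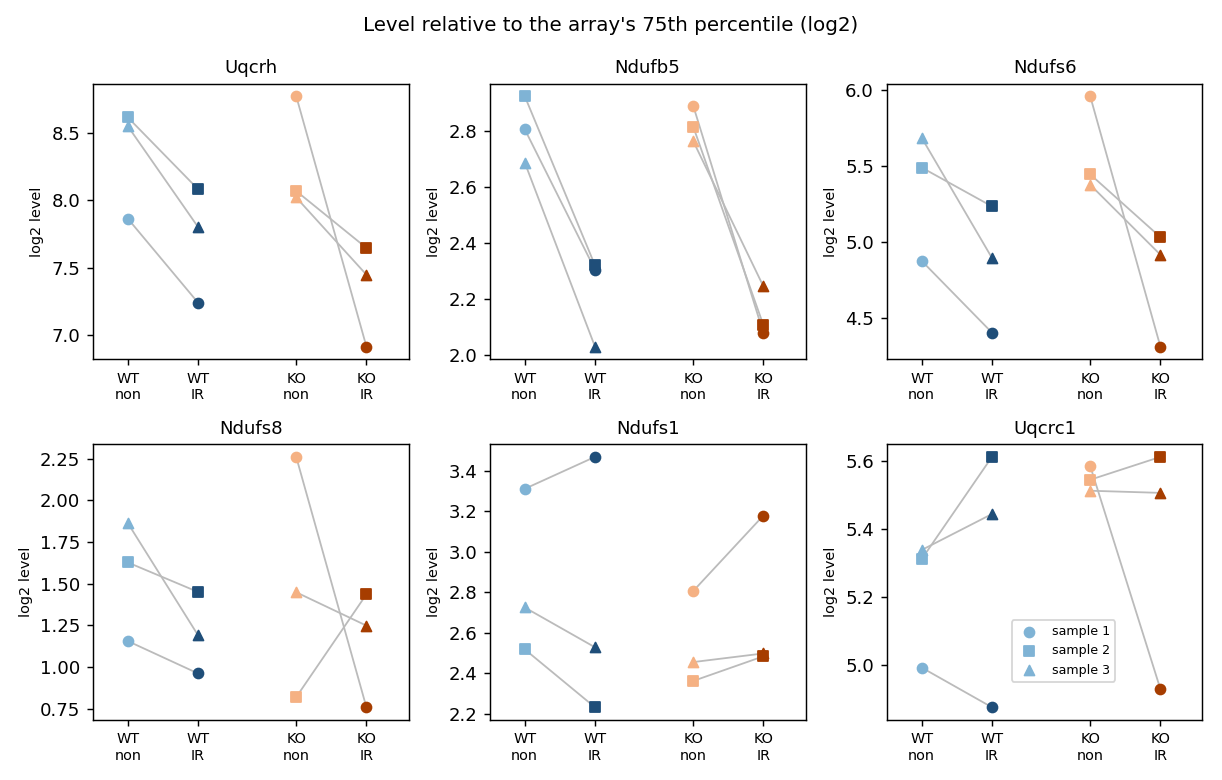
Log2 level of 6 genes (scaled to the 75th percentile of each array) on the 12 arrays, with NonIR and IR samples of the same number and genotype joined by a line and marker shapes giving the sample number. Ndufb5 separates the irradiated arrays (2.03 to 2.32) from the nonirradiated ones (2.69 to 2.92), Uqcrh and Ndufs6 have their steepest line in Atm-KO pair 1, and Ndufs8, Ndufs1 and Uqcrc1 have lines in both directions.

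The test of the difference between genotypes in their irradiation effects found no member. The difference of effects (Atm-KO minus Atm-WT) was below 0 for 48 of 51 members, against 57.1% of all features, with a median of -0.20 against -0.06. Among features other than members at a log2 level of 4 to 6 and over 6, where most members lie, 76.8% and 84.4% were below 0, with medians of -0.14 and -0.17. The member median was -0.50 (51 of 51 below 0) with normexp and -0.08 (39 of 51) with quantile normalization. With limma 0 members were called (background 0.00543%), every adjusted p was 0.9999, and 0 had an unadjusted p under 0.05 (background 0.901%). The lowest value was -0.43 ± 0.44 for Ndufaf3, and the highest 0.29 ± 0.50 for Ndufs1 (SE). Without both Atm-KO arrays numbered 1 the median was 0.10, and without all 4 arrays numbered 1 it was 0.14 with 10 of 51 below 0, so its direction rests on that pair. Leaving out NonIR-WT array 1 alone brought it to 0.01. For Ndufb5 the 95% interval of the difference of effects was -0.72 to 0.54.

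Without irradiation, the direction of the genotype difference depended on the processing. The difference Atm-KO minus Atm-WT was below 0 for 13 of 51 (45.2% of all features) and above 0 for 38, with a median of 0.09 against 0.04 over all features. Among features other than members at a log2 level of 4 to 6 and over 6, 32.5% and 36.7% were below 0, with medians of 0.11 and 0.06. The members in those bands had medians of 0.08 and 0.12. Limma called 0 members (background 0.857%, smallest adjusted p 0.941), and 0 had an unadjusted p under 0.05 (background 7.52%). The NonIR-KO arrays lay wholly above the NonIR-WT arrays for 3 members (background 8.29%), Ndufaf3, Ndufaf5 and Uqcrc1, with Ndufaf5 at 0.06, 0.02 and -0.13 against 0.37, 0.29 and 0.19. The 4 highest differences were those of Ndufaf6 (0.34 ± 0.29), Uqcrc1 (0.33 ± 0.27), Ndufb8 (0.31 ± 0.31) and Ndufaf5 (0.30 ± 0.20, SE). The lowest was Ndufs1 (-0.31 ± 0.35, SE). Summed macrophage and blood cell markers were 3.91 to 7.28 on the NonIR-WT and 0.53 to 0.99 on the NonIR-KO arrays, and their part in the genotype values was not tested. Only slide 2 held both genotypes, with 1 array of each nonirradiated group (NonIR-WT array 3 and NonIR-KO array 1), and there the difference had a median of 0.19. With slide as a block it was -0.01. Without all 4 arrays numbered 1, an alternative chosen after seeing the data, it was -0.21, with 44 of 51 members below 0. In that setting 12 members had an unadjusted limma p under 0.05, and the share over all features is not given here. There 0 members were called (smallest adjusted p 0.0937), while 1580 of all features were called in place of 158. With normexp the median was 0.35, with 2 of 51 below 0 (median -0.13 over all features). With quantile normalization it was -0.00, with 26 of 51 below 0.

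After irradiation the genotype difference was below 0 for 41 of 51 members (50.9% of all features), with a median of -0.08 against -0.01. For other features at a log2 level of 4 to 6 and over 6 the shares below 0 were 55.4% and 73.5%, with medians of -0.03 and -0.11. The members in those bands had medians of -0.10 and -0.08. Limma called 0 (background 0.206%, every adjusted p 0.9999), and 0 had an unadjusted p under 0.05 (background 5.23%). Groups did not overlap for 1 member, Ndufaf5, which was higher in IR-KO (-0.12, -0.08 and -0.06) than in IR-WT arrays (-0.14, -0.23 and -0.21, background 3.13%). The lowest differences were those of Uqcrh (-0.37 ± 0.33) and Ndufa6 (-0.32 ± 0.27), and the highest that of Ndufaf4 (0.17 ± 0.23, SE). With slide as a block the median was -0.25, and leaving out arrays one at a time it ran from -0.28 to 0.06.

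Medians below 0 after irradiation were also found for other nuclear genes of oxidative phosphorylation, none of which was called in an irradiation comparison. The medians were -0.28 in Atm-WT and -0.49 in Atm-KO cells for complex IV and cytochrome c (21 genes tested), and -0.34 and -0.62 for ATP synthase (15 genes). They were -0.16 and -0.31 for complex II (8 genes) and -0.12 and -0.25 for the citric acid cycle (12 genes). Cox7b, a small complex IV subunit, had -0.77 ± 0.27 and -0.78 ± 0.27 (SE, limma adjusted p = 0.499 and 0.417). Assembly factors of complex I that are not named Ndufaf had -0.02 and -0.25 (9 genes), and the other complex III genes -0.01 and -0.35 (5 genes).

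Glycolysis (14 genes) stood at 0.14 in Atm-WT and 0.01 in Atm-KO cells after irradiation. In nonirradiated cells all 14 were higher in Atm-KO cells, while 45.2% of all features were lower there. Among features other than members at log2 levels of 2 to 4, 4 to 6 and over 6, that share was 37.9%, 32.5% and 36.7%. The glycolysis genes were not matched to these bands. Their median was 0.21 against 0.04 over all features, with 0 called, and that comparison lies largely between slides. Hypoxia-induced genes (10 genes) stood at -0.25 and -0.09 after irradiation. Regulators of mitochondrial biogenesis (14 genes) stood at -0.14 and 0.05 with 0 called. Among them Nrf1 had 0.08 ± 0.30 and -0.37 ± 0.30, Gabpa -0.04 ± 0.45 and 0.27 ± 0.45, and Yy1 -0.15 ± 0.25 and 0.07 ± 0.25 (SE). For members with the NRF1 letters in the promoter window the median irradiation differences were -0.20 and -0.30 (6 genes), with the ETS letters -0.31 and -0.43 (7 genes), with the YY1 letters -0.41 and -0.65 (7 genes), and with none of the 3 they were -0.37 and -0.59 (24 genes).

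Probes and hybridisation layout bear on all of these values. For the 12 genes with more than 1 probe, the 16 dimmer probes were lower after irradiation in 14 cases in Atm-WT cells and 15 in Atm-KO cells; their medians were -0.27 and -0.50. Each of the 3 slides held nonirradiated samples at positions 1 and 3 and irradiated ones at 2 and 4, so array position and irradiation cannot be told apart. Slide 1 held only Atm-WT samples and slide 3 only Atm-KO samples, so genotype and slide largely coincide and can be told apart only on slide 2. Within slides the member median was -0.24 and -0.51 in Atm-WT cells and -1.2 and -0.20 in Atm-KO cells, where the -0.51 and the -1.2 came from the same slide.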

How the data were processed

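RNA of 12 samples was hybridised, Cy3-labelled, to single-colour Agilent arrays. The deposited scanner files hold processed intensity (gProcessedSignal), background-subtracted by Feature Extraction 10.7.1.1 per the file headers; the submitters' processing notes name version 11.0. The deposited matrix holds log2 values of the authors that matched log2 intensity minus the array's 75th percentile, centred per probe (r of at least 0.99752, columns' medians -0.43 to 0.27), so its direction and scale were settled from the data and what it was centred on is otherwise not given in the sources used here.

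Log2 intensity minus each array's 75th percentile was fitted by limma 3.58.1 (R 4.3.3) as a group-means model over all 12 arrays (8 residual degrees of freedom), with Benjamini-Hochberg adjustment over 18430 features and a threshold of 0.05. A feature was tested if well above background on all 3 arrays of a group; all 51 members passed, each well above background on all 12 arrays, as were 16058 features. Names came from RefSeq accessions (25097 of 41174 probes), since the files give no gene symbol. Medians over lists are descriptions without a test. The fit was tested on simulated data. Normexp used gMedianSignal and gBGMedianSignal with an offset of 50, in place of gMeanSignal, which was planned and not used here. Alternatives were normexp, quantile normalization, no filter on dim probes or a strict one, the authors' matrix, the mean of all probes, slide or replicate blocks, and leaving out arrays. Members and gene lists were chosen with earlier results of these data known. Genes were named from the core genes, Ndufa4, and the 4 highest and 4 lowest differences per comparison, not all of which the text describes; others were chosen after their values were seen. The values of 1 member are not reported here singly.

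Sample numbers came from the labels. Deviations from group means of same-numbered samples correlated at 0.852, 0.732 and 0.481 in Atm-WT cells and 0.51, 0.269 and 0.503 in Atm-KO cells, so the numbers were taken as pairs for irradiation. For the genotype comparisons the correlations were 0.00, 0.179 and -0.217 without irradiation, and 0.628, 0.616 and 0.218 with it. Same-numbered samples of a genotype also shared a slide. These correlations therefore cannot show that the numbers denote pairs, and the pairing is an assumption.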

Additional observations from a re-analysis of the deposited data

How the results depend on the processing

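Under the alternatives run, including each array left out in turn, 0 members were called in any of the 5 comparisons. With the replicate block 0 members were called in every comparison, while over all features 417, 377, 4, 315 and 140 were called in place of 82, 1, 1, 158 and 38 (irradiation in Atm-WT, in Atm-KO, their difference, genotype without and with irradiation). The median Atm-KO difference of -0.54 was -0.20 both without all 4 arrays numbered 1 and without both Atm-KO arrays numbered 1, and the difference of effects was 0.14 without all 4; these leave-outs were chosen after seeing the data, and the cause was not tested. Leaving out single arrays gave medians of -0.55 to -0.21 (Atm-WT), -0.68 to -0.36 (Atm-KO), -0.41 to 0.01 (difference of effects), -0.05 to 0.21 (genotype, nonirradiated) and -0.28 to 0.06 (genotype, irradiated). The genotype medians changed sign under such single omissions. Each value of a named gene was recomputed under each alternative. Of these recomputed values 27 differed from the reported one by more than the spread between replicates, while 1951 did not. For the counts and medians over members it was 3 and 227. That spread is wide: the pooled SD of the array medians was 0.336 for irradiation in Atm-WT and 0.28 in Atm-KO cells. A value that stayed within it is therefore not shown to be stable, and even a change of sign can fall within it. With 3 arrays per group the median SE of a member was 0.29, and 0.42 for the difference of effects, against median shifts of -0.35 and -0.54 after irradiation and -0.20 for the difference of effects. All members were well above background, so dim signal does not limit them.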

Other observations

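Cox6a2, the muscle form of a complex IV subunit, was higher in nonirradiated Atm-KO than in Atm-WT cells by 0.996 ± 0.35 (SE). Its limma adjusted p was 0.377, and 0.0456 with the replicate block, where the sample numbers did not pair the genotypes. Summed muscle markers, a list that includes Cox6a2 itself, were 17.9 to 45.7 on the NonIR-WT and 11.2 to 63.1 on the NonIR-KO arrays. The part of muscle cells in the Cox6a2 value was not tested. Car9, a hypoxia-induced carbonic anhydrase, was higher in the same comparison by 1.49 ± 0.50 (SE, limma adjusted p = 0.356). Hk2 and Pfkp, both glycolysis genes, differed between genotypes after irradiation by 0.67 ± 0.25 and 0.56 ± 0.22 (SE, limma adjusted p = 0.654 and 0.753). These 4 genes were chosen after their values were seen.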
